A study of Drosophila melanogaster with 24 samples.

Results

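The spots described here were brighter in males than in females in both the antenna and the first legs of newly emerged fruit flies (Drosophila melanogaster). They number 11 of all the spots on an array of 105 rows and 215 columns, or 0.0487%. Samples were compared on a normalised log2 level, which is log2 of the mean signal of a spot minus its local background, floored at 0, plus 50, brought to 1 common distribution over all samples. A spot was taken where, in the antenna and again in the first legs, all 4 male values lay above all 4 female values and the male mean was at least 0.2 above the female mean. The spots were thus chosen by the measured antenna and leg values, and their sex differences there are given as a description with no test. The proboscis was not used in the choice and is where the sexes were tested.

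The study profiled male and female antennae (a3 with the arista), front legs (cut at the distal tibia) and proboscises of adults dissected 1 to 2 hours after eclosion, the emergence from the pupal case. The 6 groups were male antenna, female antenna, male first legs, female first legs, male proboscis and female proboscis, with 4 samples each and 24 in all. The series text names 1 isogenic line, WI89, and no mutation or treatment, whereas each sample is described as RIL 58 or RIL 89, with 2 of each in every group. The messenger RNA was copied to cDNA and amplified with T7 RNA polymerase, and each sample was 1 dye channel, Cy3 or Cy5, of an array.

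In the fly, most differences between the sexes in somatic tissue are known to descend from the sex determination pathway. It ends in sex-specific splicing of the transcripts of 2 transcription factor genes, doublesex and fruitless. Males also raise transcription of their single X chromosome through a complex that contains the noncoding roX RNAs. The front leg carries taste bristles, which are more numerous in males, and in males the sex comb, the antenna is the main olfactory organ, and the proboscis bears the taste organs of the labellum. No gene is paired with any spot in the files, so none of the 11 spots can be assigned to these genes or to any other, and no marker list could be used to check the labelled sex or tissue. Spots are named by number for the leading 2 and otherwise by their place when the 11 are ordered by the smaller of their antenna and leg differences, largest first.

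The 24 samples were pairs of channels of 12 arrays, inferred from the quality scores, which matched spot by spot within 12 pairs of a Cy3 and a Cy5 sample. On 8 arrays the signals of the channels correlated at 0.547 to 0.709 over spots, and on the other 4 at 0.835 to 0.961. These are called the 8-array set and the 4-array set. Median net signal lay between 16.1 and 62.9 in Cy5 samples and between 102 and 148 in Cy3 samples. Dye was unequal between the sexes in the antenna, where 3 of 4 male samples and 1 of 4 female samples were in Cy5. It was equal in the first legs and proboscis, with 2 samples of each dye in each sex. Array set was unequal too. All 4 male antenna samples were on the 8-array set, but 3 of the 4 female ones were on the 4-array set. In the first legs, 4 males and 3 females were on the 8-array set and 1 female on the 4-array set. The antenna sex difference thus lay largely across array sets, and the part of the set in it was not tested. In the proboscis both male Cy3 samples and both female Cy5 samples were on the 8-array set, and both male Cy5 and both female Cy3 samples on the 4-array set, so the sex difference there cannot be told apart from a dye effect that differs between the sets. Nothing in the labels ties replicates to separate flies or cultures, so the spread that each p-value rests on may be technical. The number of arrays limits the precision.

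Of all spots, 1.37% met the antenna part of the rule, 0.12% the leg part and 0.0487%, the 11 spots, both. With the sexes exchanged the same rule found 0 spots. It found 2 with a required difference of 0.1 or with the deposited values quantile normalised. With cyclic loess, or with each sample scaled to 1 median, the exchanged rule found 1. Without the demand for no overlap, both male means were at least 0.2 above the female means at 114 spots and at least 0.2 below them at 173. With each sample scaled to 1 median in place of the common distribution, 3 of the 11 met the rule, with a constant of 100 in place of 50 it was 7, and with cyclic loess 17 spots did, 10 of them among the 11. The male minus female difference of the 11 spots ran from 0.25 to 1.29 in the antenna (median 0.60). In the first legs the range was 0.22 to 0.92 (median 0.42). All 11 had a larger difference in the antenna, where more males were in Cy5, than in the first legs. Within Cy3 alone this order did not hold at the leading 2, the fifth, the sixth and the ninth spots. The Cy3 differences were 0.87 in the antenna and 0.89 in the first legs at the first spot, and 0.24 and 0.51 at the fifth. Within Cy5 alone it did not hold at the eighth and the eleventh. The Cy3 medians were 0.25 in the antenna (1 male, 3 females) and 0.42 in the first legs. The Cy5 medians were 0.67 (3 males, 1 female) and 0.41. None of the 11 spots had a quality score above 0 on any array, though what the score means is not explained. Just inside the rule, the last 3 spots in the order had smaller differences of 0.22, 0.22 and 0.23. Just outside it, 3 spots did not overlap in either tissue but missed 0.2 in one, with smaller differences of 0.12 to 0.16. A further 103 spots had both differences above 0.2 but overlapped in at least 1 tissue.

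**Figure D1:**
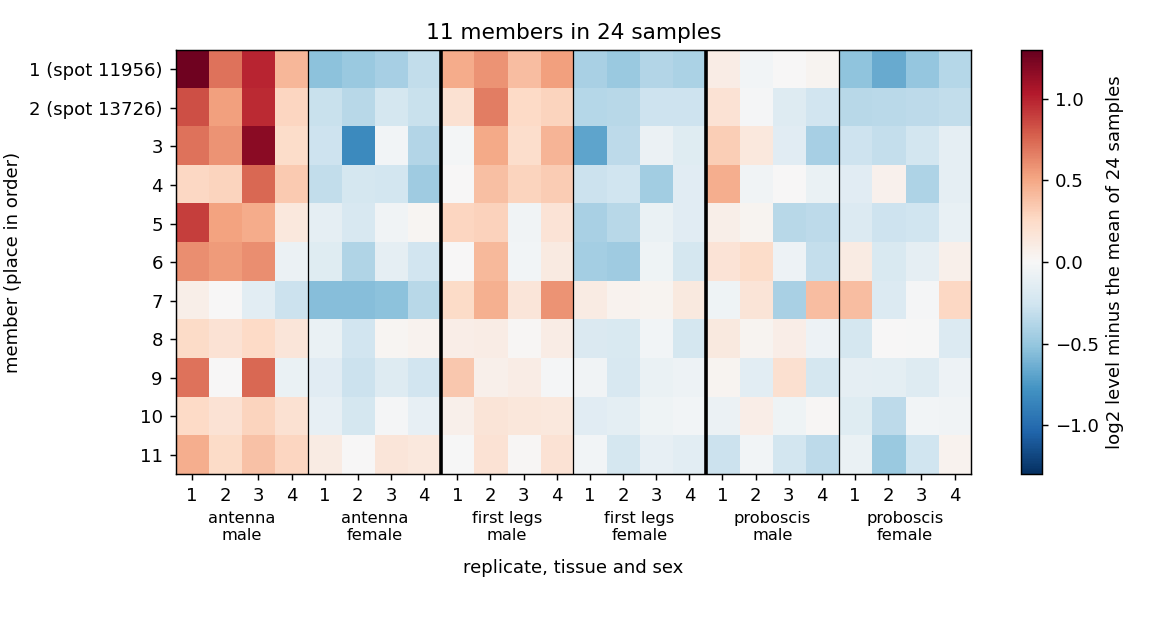
Levels of the 11 spots (rows, in order) in the 24 samples (columns, by tissue, with male left of female), as log2 level minus the mean of the spot over the 24 samples. Male antennae are above the female antennae in all 11 rows, as the rule requires, and male proboscises are nearer to the female ones.

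Spot 11956 (row 56, column 131 of the array grid) led the order. In the antenna its level was 8.66, 8.11, 8.38 and 7.83 in males and 6.86, 6.92, 6.96 and 7.08 in females. In the first legs it was 7.88, 7.98, 7.79 and 7.93 in males and 6.98, 6.92, 7.02 and 6.99 in females. Every male sample of these tissues was above every female sample by at least 0.75 in the antenna and 0.78 in the first legs. Female samples kept near one level, with means of 6.95 ± 0.09 in the antenna, 6.97 ± 0.04 in the first legs and 6.88 ± 0.12 in the proboscis (SD, n = 4 each). These are close to 6.86, the median of all values in the data. In terms of rank within a sample, the spot stood on average at the 95.3th percentile of spots in male antennae and at the 59.9th in female antennae, and at the 93.5th in male and the 62.7th in female first legs.

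In the proboscis, which did not enter the choice, spot 11956 had levels of 7.50, 7.36, 7.40 and 7.43 in males and 6.88, 6.74, 6.89 and 7.03 in females. The 4 male values lay above the 4 female values, with 0.33 between the lowest male and the highest female. On this scale that gap was the largest of all spots in the proboscis, the second largest being 0.16. It ranked 7 with each sample scaled to 1 median (gap 0.16), 2 with cyclic loess (0.18) and 2 without male replicate 1, and over the other processing settings it ran up to 0.56. The difference of means was 0.54 ± 0.07 (SE; 95% interval 0.37 to 0.71) on the log2 scale. It was the second smallest unadjusted p of all spots in limma (8.67e-05), and the adjusted p over all spots was 0.747, so the spot was not called. A two-sided exact permutation test of 4 against 4 samples gave p = 0.0286, the smallest it can give. Because fewer cells of a type and less RNA per cell cannot be told apart in bulk samples, the level speaks only of the whole organ.

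Spot 13726 (row 64, column 181) came next. Its antenna level was 7.98, 7.67, 8.11 and 7.42 in males and 6.85, 6.78, 6.91 and 6.85 in females. Its level in the first legs was 7.34, 7.81, 7.40 and 7.42 in males and 6.77, 6.78, 6.87 and 6.87 in females. The male and female samples were parted by at least 0.51 in the antenna and 0.47 in the first legs. In the proboscis the levels were 7.32, 7.12, 6.97 and 6.89 in males and 6.78, 6.79, 6.80 and 6.82 in females. The groups again did not overlap, but the gap was 0.07, and the male Cy3 samples, at 6.97 and 6.89, were the lowest males. The gap ranked 5 of all spots, but 17 with each sample scaled to 1 median and between 3 and 40 with 1 proboscis sample left out, the last without male replicate 1. The proboscis difference was 0.28 ± 0.08 (SE; 95% interval 0.11 to 0.46; limma adjusted p = 0.747), and its exact permutation p was 0.0286 (two-sided, n = 4 each).

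**Figure D2:**
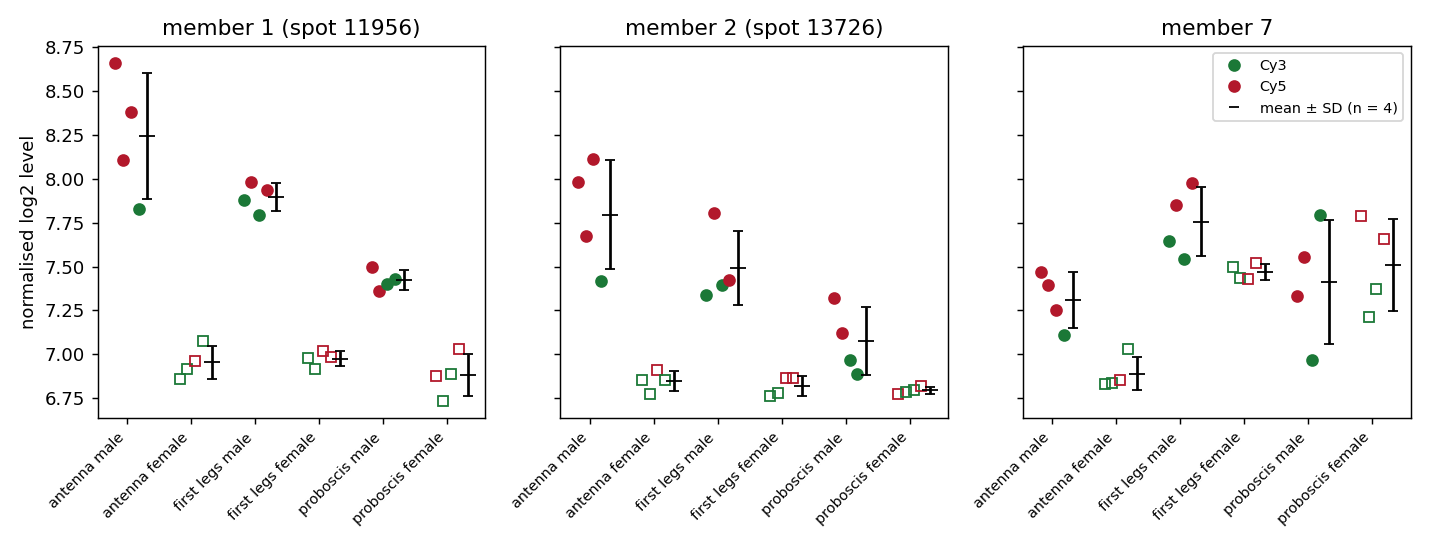
Normalised log2 level of spots 11956, 13726 and the seventh spot in each sample (filled circles male, open squares female, green Cy3, red Cy5), with mean ± SD of 4 samples in black. Males and females are apart in all 3 tissues at the first pair of spots, whereas at the seventh spot the proboscis values of the sexes overlap.

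Over the 11 spots, 2 (18.2%) had all 4 male proboscis values above all 4 female values, against 0.465% of all spots. These were spots 11956 and 13726, and both also had a difference of at least 0.2. In all, 13 spots (0.0576%) met that full criterion in the proboscis, so the 2 were 15.4% of them. The male mean was above the female mean at 9 of the 11 spots, against 47.7% of all spots. The median difference of the 11 was 0.14, against -0.0036 over all spots, and the values ran from -0.10 to 0.54. The 11 spots partly moved together over the proboscis samples, where 18 of 55 pairs had a Pearson correlation above 0.5. The median correlation was 0.33 and the lowest -0.75, and spots 11956 and 13726 correlated at 0.79. These correlations take in any sex difference. The counts thus cannot be read as 11 independent observations, nor the 2 spots without overlap as separate ones.

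In limma, 0 of the 11 spots and 0 of all spots (0%) were called between male and female proboscises at an adjusted p under 0.05. At an unadjusted p under 0.05 there were 1287 spots (5.70%), 2 of them among the 11. Both of the 2 were higher in males, against 3.62% of all spots in that direction. The third and the fourth spots, whose leg differences were 0.60 and 0.54, differed by 0.20 ± 0.13 and 0.24 ± 0.15 (SE) in the proboscis. The intervals of both included 0, with upper bounds of 0.49 and 0.57. The eighth, the ninth and the tenth spots differed by 0.15 ± 0.08, 0.09 ± 0.12 and 0.14 ± 0.08 (SE), and the fifth and the sixth by 0.05 ± 0.07 and 0.05 ± 0.08 (SE). The adjusted p of the 9 spots after the leading 2 was 0.954 or more, and each of their intervals included 0. A call that misses the threshold does not show that the sexes were alike.

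**Figure D3:**
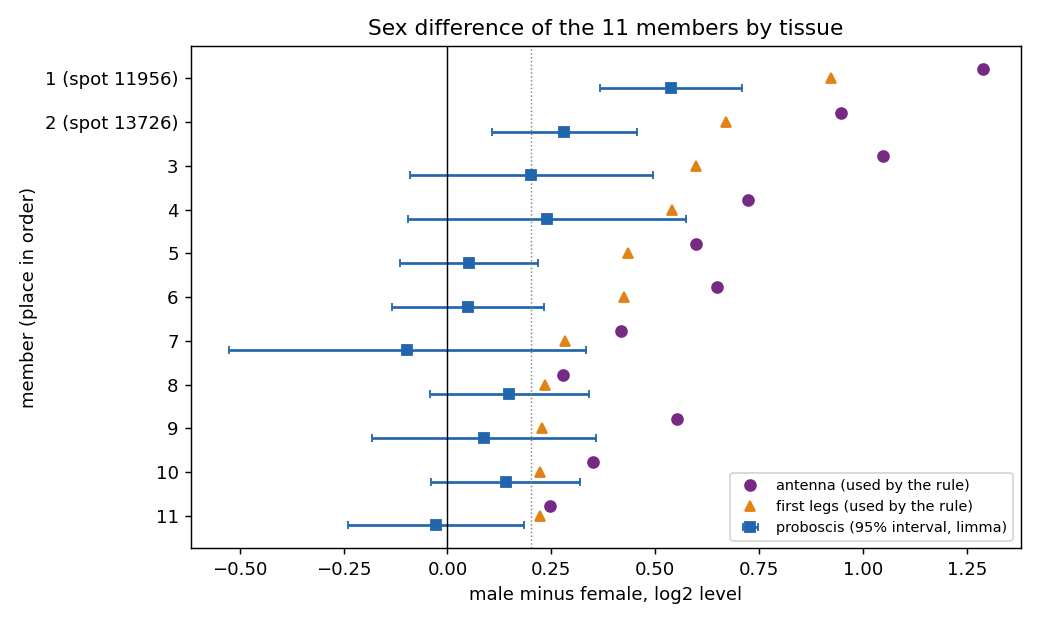
Male minus female difference in log2 level of the 11 spots in the antenna (circles), first legs (triangles) and proboscis (squares with 95% limma intervals). The dotted line marks the 0.2 required by the rule in antenna and legs, and only the top 2 proboscis intervals lie above 0.

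The seventh spot had the lowest proboscis difference, -0.10 ± 0.19 (SE). Its proboscis levels were 7.33, 7.55, 6.97 and 7.80 in males and 7.79, 7.21, 7.37 and 7.66 in females, fully overlapping and more widely spread than those of the leading pair. In the antenna its levels were 7.47, 7.39, 7.25 and 7.11 in males and 6.83, 6.84, 6.86 and 7.03 in females. In the first legs they were 7.64, 7.85, 7.54 and 7.98 in males and 7.50, 7.43, 7.43 and 7.52 in females, apart by 0.03. The other spot with a male mean below the female mean in the proboscis was the eleventh, at 7.10 ± 0.13 in males and 7.13 ± 0.23 in females (SD, n = 4 each).

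The mean difference of spot 11956 in the proboscis was exceeded at 472 spots, but at 0 of these were the sexes apart. Of all spots, 471 formed a separate group with differences from 0.78 to 1.89. Within the 8-array set their median difference was 2.81, and within the 4-array set it was -0.47. In the antenna and first legs their median differences were -0.17 and -0.04. None of the 11 spots was in that group.

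**Figure D4:**
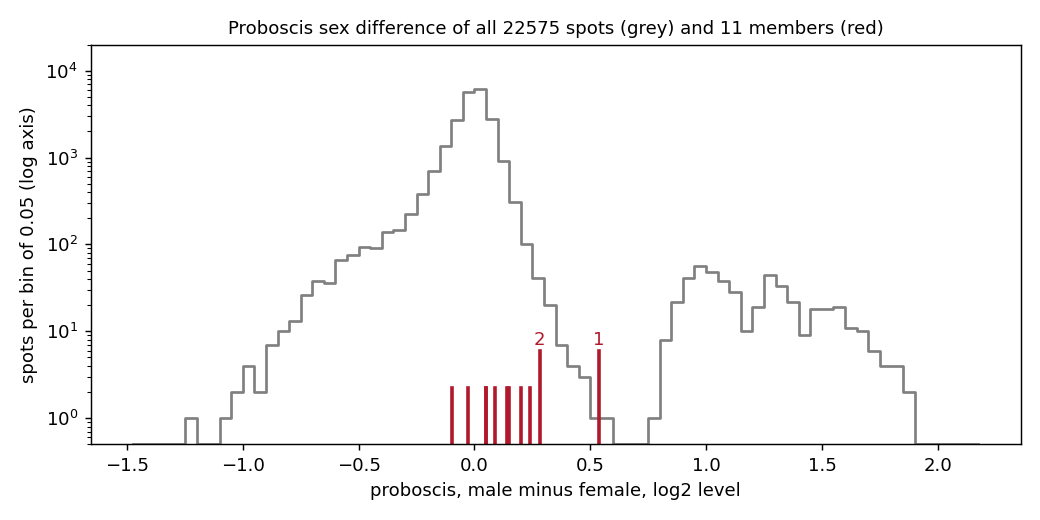
Number of spots (grey, log axis) by male minus female difference in the proboscis, in bins of 0.05 on the log2 scale, with the 11 spots in red and the leading 2 numbered. Spot 11956, at 0.54, lies at the sparse upper end of the main body of spots, below the separate group that starts at 0.78.

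The proboscis difference of the 11 spots moved with array set and dye. Within the 8-array set, with males in Cy3 and females in Cy5, the male mean was higher at 6 of 11 spots, and the differences ran from -0.34 to 0.46. Within the 4-array set, with males in Cy5 and females in Cy3, it was higher at all 11, from 0.08 to 0.62. The shares of all spots with a higher male mean were not counted within the sets. At spot 11956 the difference was 0.46 in the 8-array set and 0.62 in the 4-array set, and at spot 13726 it was 0.13 and 0.43. Both of these spots were higher in males in either dye arrangement, as were the fourth, the eighth, the ninth and the tenth. The third, the fifth, the sixth, the seventh and the eleventh spots changed sign between the sets. Before normalisation, the net signal of spot 11956 in Cy3 was 137 and 148 in male proboscises on the 8-array set and 132 and 143 in female ones on the 4-array set, which overlap. In Cy5 it was 163 and 184 in males on the 4-array set and 23.8 and 33.4 in females on the 8-array set. The separation in the proboscis was thus measured across array sets or across dyes, and it rests on the normalisation between samples.

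**Figure D5:**
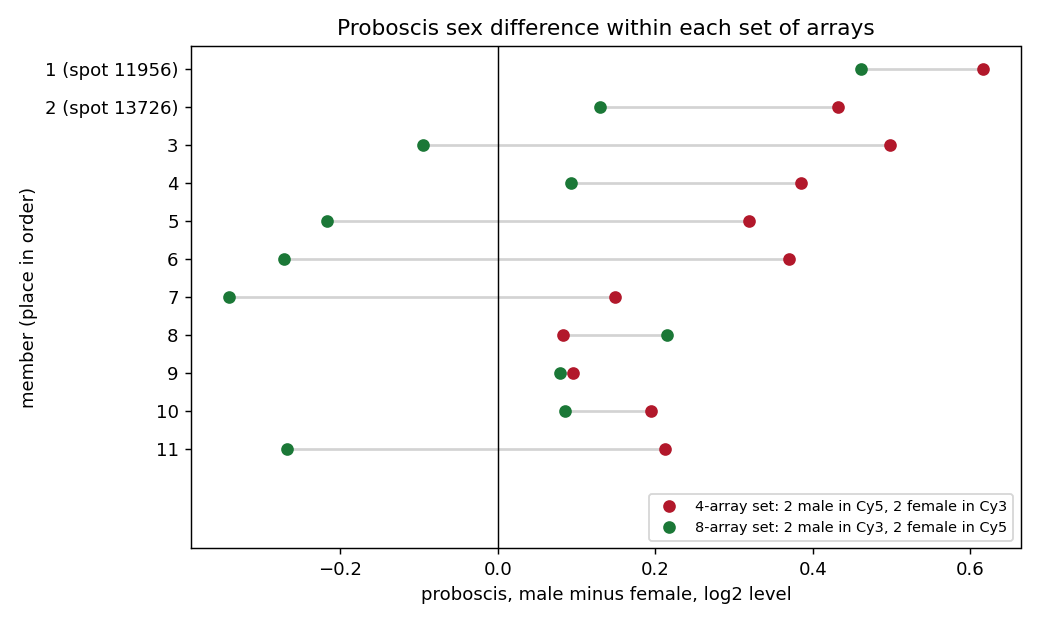
Male minus female difference in proboscis log2 level of each of the 11 spots within the 4-array set (red) and the 8-array set (green), each the mean of 2 males minus the mean of 2 females. All red points lie above 0, and 5 of the 11 green points lie below it.

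The dye is given as a description, because 16 of the 24 samples behind it are the antenna and leg samples that chose the spots. With a dye effect fitted for each array set in all 24 samples, Cy5 was above Cy3 at all 11 spots in the 8-array set, by 0.03 to 0.49 with a median of 0.24. The limma threshold was passed in that direction by 9 of the 11, against 30.9% of all spots, and nothing is read from that count. In the 4-array set 10 of 11 had the same sign, with a median of 0.09, and 1 passed, against 8.14% of all spots. The excess of Cy5 among antenna males runs in the same direction as the rule, and its part in the antenna differences was not tested. Within 1 dye the antenna differences of spot 11956 were 0.87 in Cy3 (1 male, 3 females) and 1.42 in Cy5 (3 males, 1 female). These were not free of array set. In Cy5 the males were on the 8-array set and the female on the 4-array set. In Cy3 the male was on the 8-array set and 2 of the 3 females on the 4-array set. In the first legs, where dye was balanced, the differences of the spot were 0.89 in Cy3 and 0.96 in Cy5 with 2 samples of each sex. There 1 of the 2 Cy5 females was on the 4-array set. Without normalisation, the net signal of the spot in Cy3 legs of the 8-array set was 232 and 202 in males and 111 and 122 in females.

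On 4 arrays both channels held the same tissue, 1 of each sex, so that the sexes shared the same spots of DNA. In the antenna array (male replicate 2 in Cy5, female replicate 2 in Cy3) spot 11956 was higher in the male by 1.19. In the leg arrays it was higher in the male by 1.00 with the male in Cy5 and by 0.81 with the male in Cy3. In the proboscis array, with the male in Cy5, it was higher by 0.76. At all 11 spots the male channel was the higher on each of these 4 arrays, with median differences of 0.56 in the antenna array, 0.67 and 0.19 in the leg arrays and 0.34 in the proboscis array. Over all spots the medians were 0.024, 0.027 and -0.028, and 0.0064, and the shares with the male higher were not counted. The proboscis count is not free of dye, as Cy5 was above Cy3 at 10 of the 11 spots in its array set, the 4-array set. The antenna and leg values of the 11 spots on these arrays were used by the rule. It alone fixes the male channel as the higher at all 11 there, so only the proboscis count could have differed. Of the 8 proboscis samples, 6 shared an array with an antenna or leg sample, so the proboscis samples were not used by the rule but share slides with samples that were.

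When all 24 samples were fitted together with a dye effect for each array set, the proboscis difference of spot 11956 was 0.65 ± 0.14 (SE), with an adjusted p of 0.302 in limma. In that fit 0 of 11 spots were called male-higher, against 0% of all spots, and 5 of the 11 had an unadjusted p under 0.05 with the male higher, against 1.31% of all spots. With 1 dye effect for all arrays, 2 of the 11 were called, against 2.99% of all spots, namely spot 11956 at 0.49 ± 0.09 (SE, adjusted p = 0.0104 in limma) and the tenth spot at 0.15 ± 0.04 (SE, adjusted p = 0.0330 in limma). Both of these fits take part of their dye effects and of their spread from the antenna and leg samples that chose the spots. With a dye effect for each array set, those effects also enter the proboscis difference itself, which at spot 11956 was 0.54 in the proboscis alone. Nothing is therefore read from these counts.

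Levels in the antenna and first legs, male and female, entered the rule, so the tissue contrasts are descriptions and nothing is read from the counts. Averaged over the sexes, 8 of the 11 spots passed the limma threshold as higher in the antenna than in the proboscis and 1, the seventh, as lower, against 7.68% and 6.95% of all spots. In the first legs against the proboscis 2 passed as higher and 0 as lower, against 4.04% and 4.77%. Over all spots these were 913 higher and 1076 lower, and 415 and 800 with each sample scaled to 1 median, where 0 of the 11 passed for the legs and 2 for the antenna. In females alone, an alternative chosen after the data were examined, 1 spot, the eleventh, passed as higher in the antenna (0.32 ± 0.07, SE), against 3.90% of all spots. The seventh passed as lower (-0.57 ± 0.10, SE), against 3.64%. For female first legs 0 of 11 passed in limma, against 3.84% of all spots, and 1 of 11 had an unadjusted p under 0.05, against 12.3%. The median female difference of the 11 from the proboscis was 0.05 in the antenna and 0.0026 in the first legs.

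Male means at spot 11956 were 8.24 ± 0.36 in the antenna, 7.90 ± 0.08 in the first legs and 7.42 ± 0.06 in the proboscis (SD, n = 4 each). Antenna and leg males overlapped, since the Cy3 antenna sample, at 7.83, lay below leg samples at 7.88, 7.93 and 7.98, and the other antenna males were in Cy5. At spot 13726 the male means were 7.79 ± 0.31, 7.49 ± 0.21 and 7.08 ± 0.19 in the same tissues, and antenna and leg samples overlapped there too.

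The RIL number made no called difference at the 11 spots. In limma 0 of 11 and 0% of all spots were called, with 2 of the 11 and 1123 of all spots (4.97%) at an unadjusted p under 0.05. RIL 89 minus RIL 58 ran from -0.13 to 0.05. Within the proboscis, spot 11956 was higher in males by 0.42 in RIL 89 and by 0.66 in RIL 58, with 2 samples of each sex in each.

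On the array grid the 11 spots lay between rows 11 and 64 and columns 34 and 202, and no pair was nearer than 12 grid steps. The mean male minus female difference of the 8 spots around each of them lay between -0.06 and 0.08 in the antenna and between -0.24 and 0.06 in the first legs. In the proboscis, which the rule did not use, those means lay between -0.19 and 0.24. At all 11 spots in the first legs and at 10 of 11 in the antenna every surrounding spot had a smaller difference than the spot itself. The rule chose the 11 for large differences in these tissues, so nearby spots would mostly be smaller anyway, and nothing is read from these counts.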

How the data were processed

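Intensity values were read from 24 scanner files, 1 dye channel each, holding mean signal and mean background per spot with no normalisation, per the file headers, with a quality score for each spot, also per the file headers, whose meaning no header or label explains. The deposited table holds the natural log (ln) of signal minus background; recomputed values differed by at most 9e-08, and its column medians ran from 2.78 to 5.00. Dye came from the label field.

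Signal minus background was floored at 0, 50 was added, log2 taken and the samples quantile normalised (R 4.3.3, limma 3.58.1, statmod 1.5.0; figures with matplotlib 3.10.9). The tests used limma with a variance trend and Benjamini-Hochberg adjustment over all spots, two-sided, called under 0.05. The proboscis fit held sex and dye for 8 samples, with 5 residual degrees of freedom. The planned array block could not be estimated there, because only 1 array held 2 of these samples. Tissue, dye and RIL contrasts came from all 24 samples with 6 group means, a dye effect for each array set, the RIL number and the array as a random block (correlation 0.716). Tissue and dye contrasts use the samples that chose the spots and are descriptions. Array sets were divided at the widest gap in channel correlation. Scripts were tested on simulated data.

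The 11 spots, the array sets and the tests were chosen with earlier results of these data known. Spot numbers are given for the leading 2 of the order, and the spots with the largest and smallest proboscis difference are described. The planned gene lists could not be used because the files name no genes. Replicate numbers did not pair the proboscis samples: correlations of same-numbered male and female deviations were 0.00, -0.12, 0.08 and -0.03.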

Additional observations from a re-analysis of the deposited data

Results flagged for a closer look

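At 5 of the 66 sets of 4 samples (11 spots in 6 groups), 1 sample stood apart, its gap to the nearest sample, as a share of the range of the group, exceeding the 95% critical value of Dixon's test. Chance alone gives about 1 such case in 20 groups. At the fourth spot this was male antenna replicate 3, at 8.06 against 7.58 to 7.65 in the other male antennae (ratio 0.857), and male proboscis replicate 1, at 7.79 against 7.23 to 7.31 (ratio 0.853). At the sixth spot male antenna replicate 4, the only Cy3 sample of its group, was lower at 7.16 against 7.78 to 7.84 (ratio 0.918). At the seventh spot female antenna replicate 4 was at 7.03 against 6.83 to 6.86 (ratio 0.891). At the eighth spot male leg replicate 3 was at 7.27 against 7.34 to 7.35 (ratio 0.904), a gap of small size.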

How the results depend on the processing

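The number of spots that met the rule was 7 with an added constant of 100, 3 with each sample scaled to 1 median, 17 with cyclic loess and 6 with a required difference of 0.4, and lay between 10 and 19 when 1 antenna or leg sample was left out, the highest without male leg replicate 3. Spots called between the sexes in the proboscis numbered 1146 with all 24 samples and 1 dye effect, where 2 of the 11 were called, 2 with a dye effect for each array set, 3 with no variance trend and 1 with an array block taken from all 24 samples (an alternative chosen after the data were examined), the last 3 counts holding spots lower in males and 0 of the 11. It was 0 without any 1 proboscis sample. The fit with no array block is the one reported. Proboscis spots with all male values above all female values numbered 65 with median scaling and 49 without the dimmest 25% of spots, and 191 to 326 with 1 sample left out; of the 11 there were 2, or 2 to 3 with 1 left out. With the replicate block 0 spots were called between the sexes in the proboscis, as without it, and 9 and 2 of the 11 passed for antenna and legs against proboscis, also as without it. Over all spots the block gave 3568 and 2149, beside 3302 and 1989.

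Antenna against proboscis gave 1825 spots with no array block and 1701 in females alone, and 2245 to 3356 with 1 sample left out; of the 11, 2 were called with median scaling, 2 in females alone, and 6 to 9 with 1 left out. Legs against proboscis gave 1215 with median scaling, 1174 with no array block, 868 in females alone and 1273 to 2030 with 1 left out; of the 11 these were 0 with median scaling, 1 with cyclic loess, 1 with 1 dye effect, 0 in females alone and 0 to 4 with 1 left out. The proboscis difference changed sign at the seventh spot (0.067 with median scaling, 0.016 with a dye effect per set, -0.30 to 0.032 with 1 sample left out, positive without male replicate 3), the eleventh (0.10 with median scaling, -0.093 to 0.044 with 1 left out, positive without male replicate 1 and, at 0.019, without female replicate 4), the sixth (-0.0053 with 1 dye effect) and the ninth (-0.025 with 1 dye effect, -0.029 with a dye effect per set, -0.0082 without male replicate 3, up to 0.16 with 1 left out). The cause was not tested. Spot 11956 stayed between 0.39 and 0.95 over 15 alternatives and spot 13726 between 0.20 and 0.55.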
